A study of Mus musculus with 4 samples.

Results

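Transcripts of 48 genes that act in the G2 phase and in mitosis were described here across 4 RNA-seq libraries of mouse heart endothelial cells. The genes were taken by symbol from a fixed list of mitotic cyclins, kinases, centromere and checkpoint genes, without kinesins, and all 48 had a row among the 24346 rows of the deposited table. The study compared 2 ECp53KO libraries, ECp53KO_170 and ECp53KO_172, with 2 Ctrl libraries, Ctrl_178 and Ctrl_182, named by the numbers in their titles. ECp53KO is not expanded in the labels and is read here as loss of p53 in endothelial cells, from the series title, while the Ctrl genotype is labelled wild type. All mice are labelled young with a C57BL/6 background, and in every group endothelial cells were purified from heart by flow cytometry and are labelled as freshly isolated. The sources used here give neither the driver of the deletion nor the deleted exons. Nor do the labels state that each library is a separate mouse, so p-values measure only the spread between these libraries.

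A dividing cell enters mitosis when CDK1, bound to cyclin A or cyclin B, becomes active. The checkpoint kinases then hold the anaphase-promoting complex (APC/C) in check until the kinetochores of all chromosomes are attached to the spindle, and cytokinesis follows once the APC/C has destroyed securin and cyclin B. Many of these genes are transcribed most in G2 and M phase, under the MuvB, B-MYB and FOXM1 factors, and resting cells hold them down through the DREAM complex. Endothelium of the heart is largely at rest after development, and in cultured cells active p53 is known to lower many of these genes through p21 and DREAM.

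The labels were checked first on the targeted gene. Trp53, which encodes p53 (chromosome 11, 69580348 to 69591873, GRCm38), had 4.41 and 2.45 FPKM in ECp53KO_170 and ECp53KO_172, against 52.1 and 28.8 FPKM in Ctrl_178 and Ctrl_182 (fragments per kilobase of transcript, scaled to depth). Cdkn1a, which encodes the CDK inhibitor p21, had 353 and 387 FPKM in ECp53KO, against 528 and 668 FPKM in Ctrl. Both genes were lower in each ECp53KO library than in either Ctrl library. The limma p adjusted over all tested genes was 0.146 for Trp53 and 0.864 for Cdkn1a, so neither was called. Depth, estimated from the low values, was 9900000 to 11400000 fragments for ECp53KO, against 11000000 for Ctrl_178 and 22600000 for Ctrl_182. The value of 1 fragment on a transcript of 2 kb was then 0.0437 and 0.0503 FPKM in ECp53KO_170 and ECp53KO_172, and 0.0455 and 0.0222 FPKM in Ctrl_178 and Ctrl_182, so the lowest members rest on a handful of fragments.

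Promoters of many mitotic genes carry a cell cycle genes homology region (CHR), the element through which MuvB complexes bind, and upstream CCAAT boxes, bound by NF-Y. RefSeq promoter windows (GRCm38.p6, 250 bases before to 50 bases after a start site) were at hand for 41 of the 48 members. A CHR was sought on both strands as TTTGAA or TTCGAA, the second of which reads the same on both strands, and a CCAAT box as CCAAT, on both strands. One window is shown for a member of each function group used below, to let the elements be seen in place, with every match of either motif in capitals. Each window shown holds both motifs, as did a window of 26 of the 41 members, while 12 of the 41 had no CHR match. The windows shown are therefore examples of the motifs and do not stand for their groups.
Ccnb2 (chr9:70421505-70421804, minus strand): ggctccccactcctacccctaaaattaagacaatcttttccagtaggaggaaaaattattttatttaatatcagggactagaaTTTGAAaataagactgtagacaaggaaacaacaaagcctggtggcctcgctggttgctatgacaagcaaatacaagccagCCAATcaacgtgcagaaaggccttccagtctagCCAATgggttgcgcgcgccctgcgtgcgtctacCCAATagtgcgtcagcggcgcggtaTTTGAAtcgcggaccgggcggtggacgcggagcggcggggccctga
Plk1 (chr7:122159185-122159484, plus strand): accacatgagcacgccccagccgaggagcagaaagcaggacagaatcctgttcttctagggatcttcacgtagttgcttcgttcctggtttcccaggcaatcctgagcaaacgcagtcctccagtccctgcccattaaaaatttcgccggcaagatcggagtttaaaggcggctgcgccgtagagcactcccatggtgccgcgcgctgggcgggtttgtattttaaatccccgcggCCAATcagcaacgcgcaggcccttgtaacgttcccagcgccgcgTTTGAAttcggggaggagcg
Cdc20 (chr4:118437294-118437593, minus strand): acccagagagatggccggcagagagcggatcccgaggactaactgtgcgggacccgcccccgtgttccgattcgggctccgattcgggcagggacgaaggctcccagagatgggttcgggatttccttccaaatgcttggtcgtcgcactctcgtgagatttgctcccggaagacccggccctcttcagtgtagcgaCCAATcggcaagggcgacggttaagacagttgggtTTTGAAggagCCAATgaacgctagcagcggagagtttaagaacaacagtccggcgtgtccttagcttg
Cenpa (chr5:30666636-30666935, plus strand): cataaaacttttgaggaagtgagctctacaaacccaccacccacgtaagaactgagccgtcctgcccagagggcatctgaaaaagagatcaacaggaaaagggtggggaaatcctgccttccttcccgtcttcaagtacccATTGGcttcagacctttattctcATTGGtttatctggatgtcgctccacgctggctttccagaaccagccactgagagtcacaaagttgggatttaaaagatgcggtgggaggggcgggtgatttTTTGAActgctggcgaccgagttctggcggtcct
Hmmr (chr11:40733388-40733687, minus strand): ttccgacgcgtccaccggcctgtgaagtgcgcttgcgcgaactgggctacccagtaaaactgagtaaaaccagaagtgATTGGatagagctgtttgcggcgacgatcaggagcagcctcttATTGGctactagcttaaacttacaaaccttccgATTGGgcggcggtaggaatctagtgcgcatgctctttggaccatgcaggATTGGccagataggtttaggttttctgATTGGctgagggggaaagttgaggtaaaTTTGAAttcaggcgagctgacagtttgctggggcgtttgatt
Prc1 (chr7:80294201-80294500, plus strand): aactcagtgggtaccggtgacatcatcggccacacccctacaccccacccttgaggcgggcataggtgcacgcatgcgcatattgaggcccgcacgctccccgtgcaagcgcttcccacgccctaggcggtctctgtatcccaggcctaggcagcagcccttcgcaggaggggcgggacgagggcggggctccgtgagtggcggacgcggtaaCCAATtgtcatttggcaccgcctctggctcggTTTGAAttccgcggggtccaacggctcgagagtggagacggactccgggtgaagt
Mki67 (chr7:135716330-135716629, minus strand): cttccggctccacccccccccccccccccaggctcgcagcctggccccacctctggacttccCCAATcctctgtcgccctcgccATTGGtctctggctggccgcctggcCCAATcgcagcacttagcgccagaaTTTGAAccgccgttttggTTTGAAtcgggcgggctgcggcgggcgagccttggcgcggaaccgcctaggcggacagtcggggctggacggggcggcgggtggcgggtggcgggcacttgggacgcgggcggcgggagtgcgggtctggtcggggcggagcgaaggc

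A CHR stood in the windows of 29 of 41 members (70.7%), against 21.7% of the 27025 genes with a window. In all 29 at least 1 match was centred within 100 bases of the start site, which held for 10.1% of all genes. A CCAAT box stood in 30 of 41 (73.2%), against 41.1% of all genes, and 2 or more in 22 of 41 (53.7%, against 13.3%). A window with both motifs was found for 26 members (63.4%, against 8.61%). These members were chosen for their role in mitosis, so the shares describe the list and are no test of it. In the Ccnb2 window 3 CCAAT boxes begin at -87, -54 and -21 from the start site and 2 CHR matches at -167 and 5, and in Mki67 2 CHR matches begin at -116 and -98, downstream of 3 CCAAT boxes. The median log2 fold change, ECp53KO minus Ctrl on the log2(FPKM + 1) scale, was -0.83 over the 29 members with a CHR match and -0.93 over the 12 without. Every ECp53KO value lay below every Ctrl value in 22 of the 29 and in 10 of the 12, beside 17.2% of all rows with a value above 0. Whether the members with and without a CHR match differ was not tested.

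**Figure D1:**
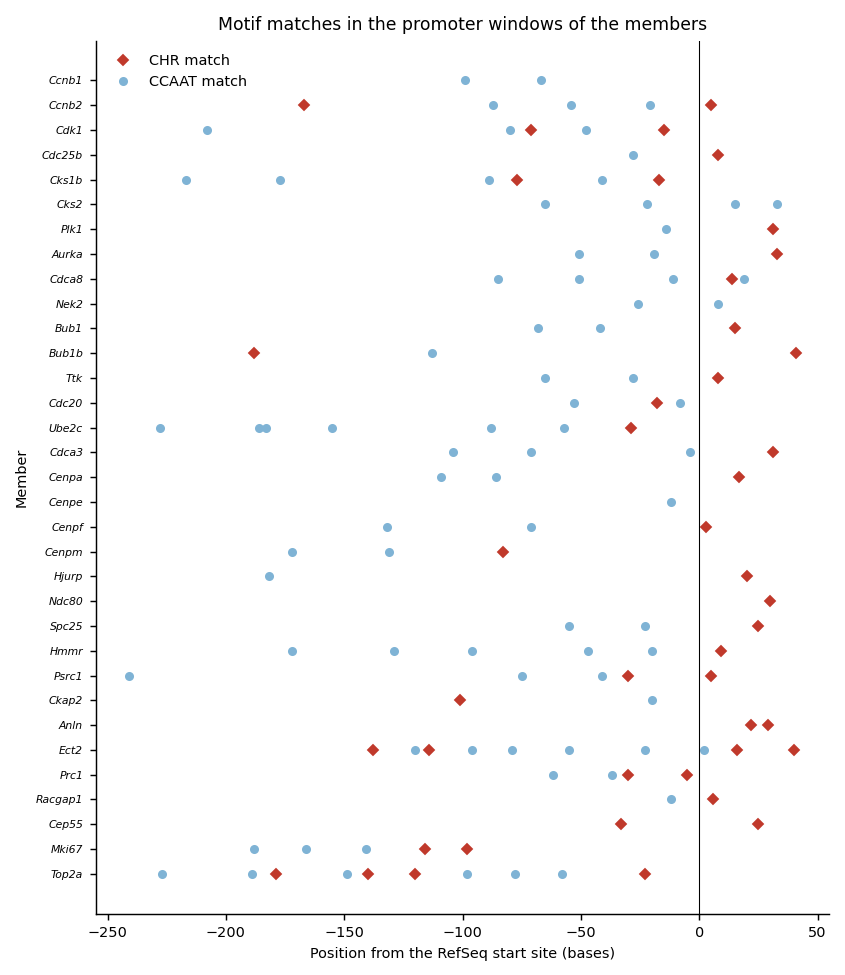
Matches to the CHR (red diamonds) and CCAAT (blue circles) motifs in the 33 members with any match, by distance in bases of the first matching base from the RefSeq start site. Members with 2 windows show the matches of each. CCAAT matches lie mostly upstream of the start site (median -68) and CHR matches near it (median -1).

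The members were low in all 4 libraries and lower in ECp53KO. The median FPKM over the 48 genes was 1.41 and 1.48 in ECp53KO_170 and ECp53KO_172, against 4.19 and 2.60 in Ctrl_178 and Ctrl_182. By the mean of each group 47 of 48 members were lower in ECp53KO, all except Pttg1, and 33 had an ECp53KO mean under 0.5 times the Ctrl mean. The ratio of means had a median of 0.398 and its 25th and 75th percentiles were 0.307 and 0.524. In 37 of 48 both ECp53KO libraries lay below both Ctrl libraries, and in 0 of 48 above both. Over the 16809 rows with a value above 0 in any library, 17.2% lay below in this way and 16.3% above. Some of the 37 were only just apart. The highest ECp53KO and lowest Ctrl values were 0.631 and 0.655 FPKM in Melk, 2.092 and 2.136 FPKM in Hmmr and 0.602 and 0.656 FPKM in Cenpe. In bulk RNA, fewer dividing cells and less of these transcripts per cell cannot be told apart.

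No single member passed the test over all genes. The test was limma on log2(FPKM + 1) in the 11332 genes averaging 1 FPKM or more, of which 0.0882% were called lower in ECp53KO and 0.0265% higher at a Benjamini-Hochberg adjusted p under 0.05. Of the members 41 passed this filter, and 7 of these had an ECp53KO mean under 1 FPKM and entered through the Ctrl libraries. The smallest limma adjusted p of any member was 0.864. By unadjusted limma p, with the same threshold, 26 of the 41 were lower, 6 of them genes that entered through Ctrl, and 0 higher, where 2.82% of all tested genes were lower and 1.97% higher. Among the 41, 31 were lower without overlap, the same 6 among them, against 16.8% of tested genes. The median log2 fold change was -0.84 over all 48 members and -0.91 over the 41, beside 0.012 over all tested genes. The 41 include the 7 genes that entered through Ctrl, which the filter favours for being high there. With Ctrl_178 left out, the median over the tested members was -0.63, and with Ctrl_182 left out it was -1.145. It was -0.81 when ECp53KO_170 was dropped and -0.88 when ECp53KO_172 was. The number of members passing the filter changed between these settings, from 38 to 43.

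**Figure D2:**
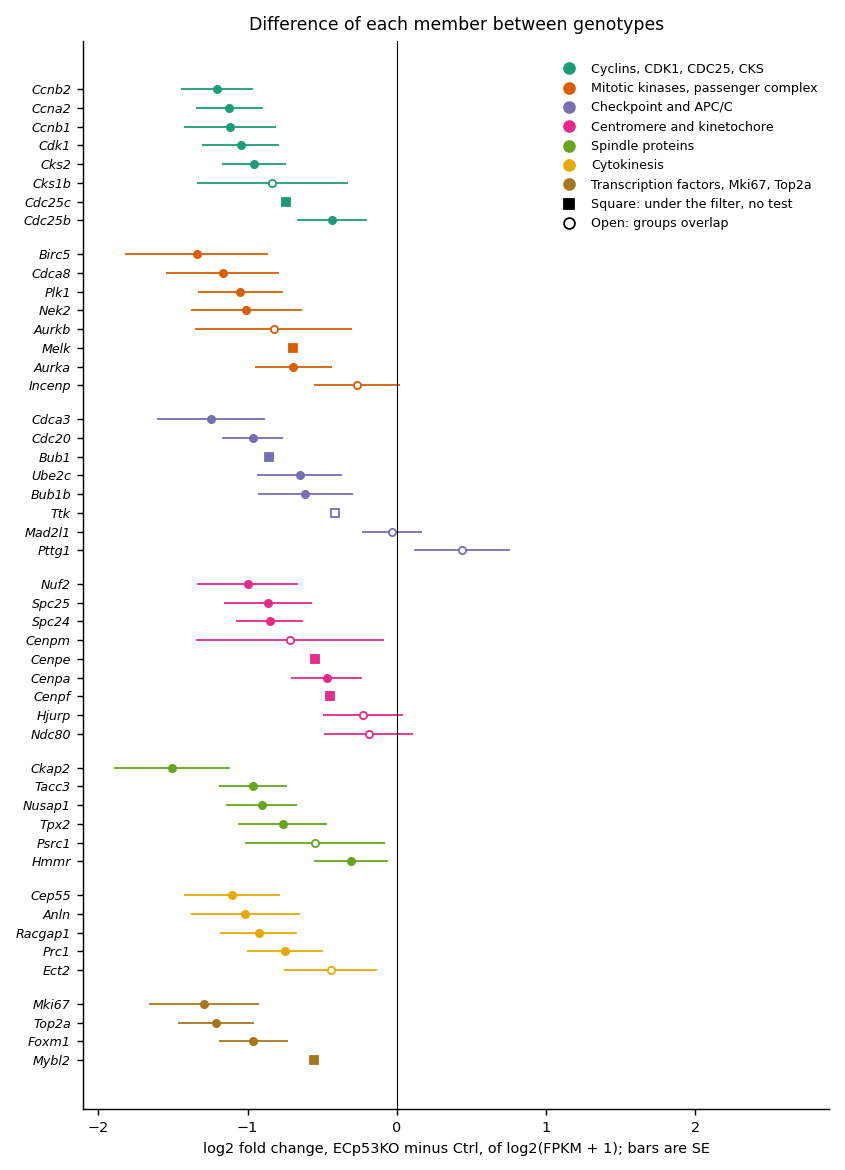
Log2 fold change of each of the 48 members, ECp53KO minus Ctrl, on the log2(FPKM + 1) scale, with its limma standard error, coloured by function group. Filled symbols mark the 37 members whose ECp53KO values all lie below the Ctrl values, open ones the 11 whose groups overlap, and squares the 7 members under the filter. Pttg1 alone lies above 0.

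The 2 Ctrl libraries differed from each other as well. All 48 members were higher in Ctrl_178 than in Ctrl_182, where 49.7% of rows with a value above 0 were. The median difference between them on the log2(FPKM + 1) scale was 0.56 over the members and 0.01 over the tested genes. The median of the ECp53KO mean minus Ctrl_178 was -1.09 and minus Ctrl_182 -0.50, so the Ctrl libraries lay about as far from each other as ECp53KO lay from Ctrl_182. The ECp53KO libraries lay closer together, with a median difference of -0.16 (ECp53KO_170 minus ECp53KO_172) and 30 of 48 members higher in ECp53KO_172. Summed over all 48 members, the level was 203 and 158 FPKM in ECp53KO, against 312 and 214 FPKM in Ctrl_178 and Ctrl_182, without overlap. Pttg1 makes up much of that sum, and without it the level was 91.86 and 98.99 FPKM in ECp53KO, against 249 and 157 FPKM in Ctrl_178 and Ctrl_182. The exact two-sided permutation p of either sum was 0.333, the smallest that 2 against 2 libraries can give.

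**Figure D3:**
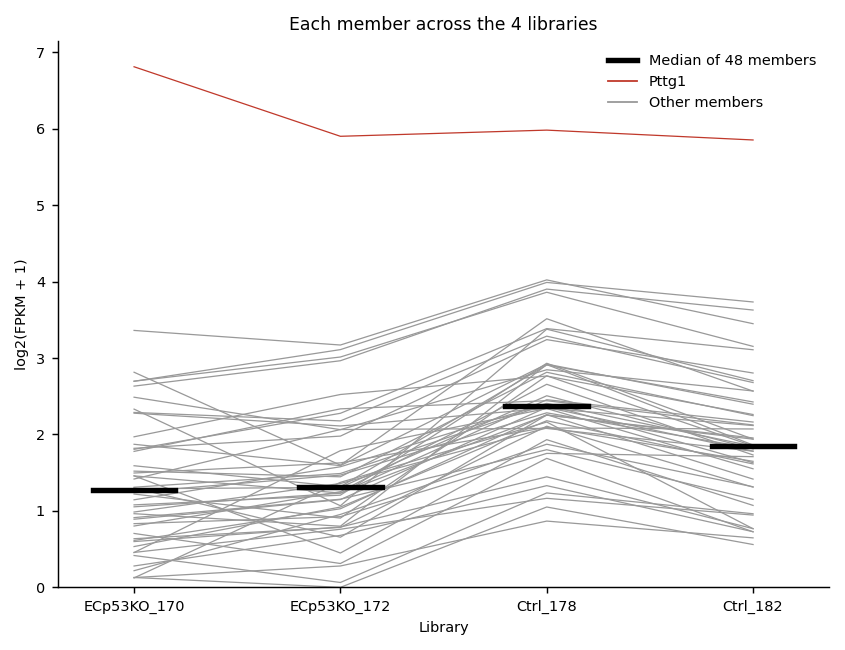
Level of each of the 48 members as log2(FPKM + 1) in the 4 libraries, 1 line per gene, with the median as a black bar. The median is low in both ECp53KO libraries, highest in Ctrl_178 and intermediate in Ctrl_182, while Pttg1 (red) lies far above the rest.

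Of the 8 genes of cyclins, CDK1 and its CDC25 and CKS partners 7 were lower without overlap. An unadjusted limma p below 0.05 was found for 5 of the 7 tested. The shares over all genes were 17.2% of rows with a value above 0 and 2.82% of tested genes, and stand beside each group below. The group's median log2 fold change was -1.002. Cks2, a small subunit that binds cyclin-dependent kinases, had 5.48 and 7.64 FPKM in ECp53KO, against 14.9 and 12.3 FPKM in Ctrl. Ccnb2, which encodes cyclin B2 (chromosome 9, 70407689 to 70421554), had 2.50 and 3.85 FPKM in ECp53KO, against 9.45 and 7.62 FPKM in Ctrl. Its log2 fold change was -1.21 ± 0.24 (SE, limma adjusted p = 0.864). In these genes every ECp53KO value lay below every Ctrl value. Cks1b, the paralog of Cks2, overlapped, with 6.03 and 2.03 FPKM in ECp53KO, against 10.4 and 4.93 FPKM in Ctrl.

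The remaining 5 genes of the group, named after their values were seen, were lower without overlap. Ccna2, which encodes cyclin A2, averaged 2.73 ± 0.292 FPKM in ECp53KO and 7.22 ± 1.75 FPKM in Ctrl (SD, n = 2 each). Without strand, reads in the 12.5% of its exon bases shared with the opposite-strand gene Exosc9 cannot be told apart. Exosc9 stood at 11.4 to 12.3 FPKM. Cdk1, the kinase itself, averaged 1.80 ± 0.102 FPKM in ECp53KO and 4.89 ± 1.62 FPKM in Ctrl, and Ccnb1, which encodes cyclin B1, 1.02 ± 0.628 FPKM in ECp53KO and 3.30 ± 0.664 FPKM in Ctrl. Of the phosphatases that remove the inhibitory phosphate from CDK1, Cdc25b had the ratio nearest to 1 in the group, 0.700, at 3.89 ± 1.01 FPKM in ECp53KO and 5.56 ± 0.889 FPKM in Ctrl. Cdc25c stood at 0.0936 FPKM in ECp53KO_170 and was listed at 0 in ECp53KO_172, against 1.07 and 0.475 FPKM in Ctrl, and was not tested.

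**Figure D4:**
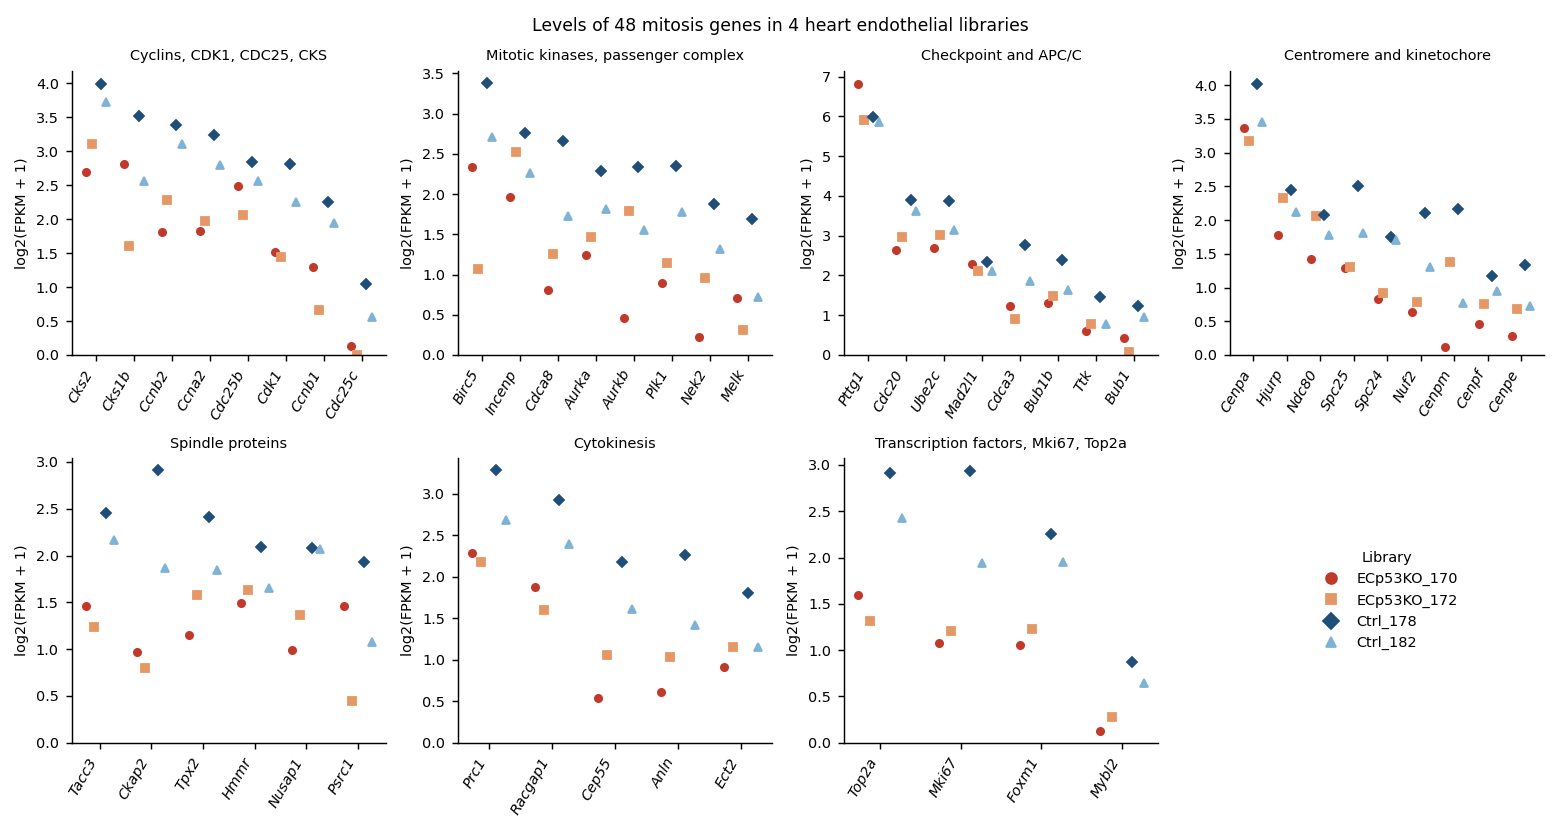
Level of every member as log2(FPKM + 1) in each library, in 7 panels by function group, ordered within a panel by mean FPKM. ECp53KO libraries are drawn in red and orange to the left and Ctrl libraries in dark and light blue to the right of each gene. In Top2a, Mki67, Foxm1 and Mybl2 no values of the 2 genotypes overlap, and in Pttg1 and Mad2l1 they do.

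Mitotic kinases and the chromosomal passenger complex, which places Aurora B at the inner centromere, were lower by their means in all 8 genes. Of these 6 were lower without overlap (17.2% over all genes) and 5 of 7 tested had an unadjusted limma p below 0.05 (2.82%). Of the 5, 1 (Nek2) entered the test through Ctrl. The median log2 fold change was -0.92. Birc5, which encodes the passenger subunit survivin, had 4.03 and 1.10 FPKM in ECp53KO, against 9.39 and 5.52 FPKM in Ctrl. Cdca8, which encodes the passenger subunit borealin, had 0.744 and 1.38 FPKM in ECp53KO, against 5.31 and 2.32 FPKM in Ctrl. The other members of the complex overlapped. Incenp, its scaffold, had 2.92 and 4.75 FPKM in ECp53KO, against 5.80 and 3.79 FPKM in Ctrl. Aurkb, its kinase, had 0.371 and 2.45 FPKM in ECp53KO, against 4.06 and 1.93 FPKM in Ctrl, so in both genes the value of ECp53KO_172 lay between the Ctrl values. Among the free kinases, Plk1, which drives mitotic entry and spindle assembly, averaged 1.04 ± 0.256 FPKM in ECp53KO and 3.27 ± 1.19 FPKM in Ctrl (SD, n = 2 each), and Aurka, the spindle pole kinase, 1.57 ± 0.280 FPKM in ECp53KO and 3.20 ± 0.951 FPKM in Ctrl. The centrosomal kinase Nek2 had a ratio of 0.265 and Melk, a leucine zipper kinase under the filter, of 0.303.

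Checkpoint and APC/C genes were the least uniform group. Of 8 genes 5 were lower without overlap (17.2% over all genes), and 2 of 6 tested had an unadjusted limma p below 0.05 (2.82%). The median log2 fold change was -0.63. Pttg1, which encodes securin, the protein that keeps separase inactive until anaphase, was the most abundant member and the single one with a positive difference. It had 111 and 58.8 FPKM in ECp53KO_170 and ECp53KO_172, against 62.2 and 56.8 FPKM in Ctrl. ECp53KO_170 alone was high, with ECp53KO_172 between the Ctrl libraries, and the log2 fold change was 0.44 ± 0.32 (limma adjusted p = 0.864).

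Cdc20, the activator that lets the APC/C act at anaphase, had 5.20 and 6.81 FPKM in ECp53KO, against 13.9 and 11.4 FPKM in Ctrl, without overlap. Ube2c, the APC/C's ubiquitin-conjugating enzyme, had 5.49 and 7.08 FPKM in ECp53KO, against 13.5 and 7.89 FPKM in Ctrl. Mad2l1, which encodes the checkpoint protein MAD2 that sequesters CDC20, had 3.85 and 3.32 FPKM in ECp53KO, against 4.07 and 3.34 FPKM in Ctrl. Its log2 fold change was -0.03 ± 0.20, and its sign depended on the library left out and on removal of the length trend (0.065). The kinase gene Ttk overlapped narrowly, at 0.515 and 0.727 FPKM in ECp53KO, against 1.72 and 0.703 FPKM in Ctrl. Bub1b, which encodes the checkpoint protein BUBR1, had a ratio of 0.517, the checkpoint kinase Bub1 of 0.165 and Cdca3, linked to degradation of the mitotic inhibitor WEE1, of 0.262. All 3 were lower without overlap, with Bub1 at 0.335 and 0.0453 FPKM in ECp53KO, against 1.35 and 0.949 FPKM in Ctrl.

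Centromere and kinetochore genes had a median log2 fold change of -0.55 and a median ratio of means of 0.406. Of 9 genes 6 were lower without overlap (17.2% over all genes) and 3 of 7 tested had an unadjusted limma p below 0.05 (2.82%). Of these 3, Nuf2 and Spc24 entered the test through Ctrl. Cenpa, the histone H3 variant that marks centromeres, had 9.28 and 8.003 FPKM in ECp53KO, against 15.2 and 9.92 FPKM in Ctrl. Its chaperone Hjurp had 2.43 and 4.05 FPKM in ECp53KO, against 4.43 and 3.36 FPKM in Ctrl. The genotypes did not overlap in Cenpa and did in Hjurp.

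The 4 subunits of the NDC80 complex, which holds microtubule ends at the kinetochore, did not all differ in the same way. Ndc80 had 1.67 and 3.18 FPKM in ECp53KO, against 3.23 and 2.44 FPKM in Ctrl and overlapped. Its partners Nuf2 (ratio 0.266), Spc24 (0.362) and Spc25 (0.406) did not overlap. Whether Ndc80 differs from its partners was not tested. Cenpm, a subunit of the constitutive centromere network, ranged widely, at 0.0896 and 1.59 FPKM in ECp53KO, against 3.48 and 0.702 FPKM in Ctrl. The large kinetochore proteins Cenpe and Cenpf stayed under the filter, with ratios of 0.376 and 0.492 and no overlap.

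Spindle genes had a median log2 fold change of -0.84, with 5 of 6 lower without overlap (17.2% over all genes). At an unadjusted limma p below 0.05 were 4 of 6 (2.82%), of which Ckap2 entered the test through Ctrl. Tacc3, a microtubule-binding partner of clathrin on the spindle, had 1.75 and 1.35 FPKM in ECp53KO, against 4.48 and 3.48 FPKM in Ctrl. Ckap2, a spindle-stabilising protein, had 0.951 and 0.741 FPKM in ECp53KO, against 6.54 and 2.63 FPKM in Ctrl. Its log2 fold change of -1.51 ± 0.39 was the lowest of all members on the log2(FPKM + 1) scale, and was -0.98 without Ctrl_178. By the ratio of means Cdc25c (0.060) and Bub1 (0.165) were lower than Ckap2 (0.184). Tacc3 and Ckap2 had every ECp53KO value under every Ctrl value. Tpx2, the activator of Aurora A, had 1.21 and 1.98 FPKM in ECp53KO, against 4.30 and 2.60 FPKM in Ctrl. Nusap1, which bundles spindle microtubules, had a ratio of 0.395, and Hmmr, a spindle pole and hyaluronan-binding protein, of 0.724. Psrc1, a microtubule-binding protein, overlapped, at 1.75 and 0.365 FPKM in ECp53KO, against 2.82 and 1.10 FPKM in Ctrl.

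Cytokinesis genes had a median of -0.93, with 4 of 5 lower without overlap (17.2% over all genes). At an unadjusted limma p below 0.05 were 4 of 5 (2.82%), of which Anln and Cep55 entered the test through Ctrl. Prc1, which bundles the microtubules of the central spindle, had 3.88 and 3.53 FPKM in ECp53KO, against 8.76 and 5.40 FPKM in Ctrl. Racgap1, a subunit of centralspindlin, had 2.66 and 2.02 FPKM in ECp53KO, against 6.57 and 4.26 FPKM in Ctrl. Cep55, which recruits the abscission machinery to the midbody, had 0.448 and 1.07 FPKM in ECp53KO, against 3.53 and 2.06 FPKM in Ctrl. In these 3 genes and in Anln (ratio 0.288), the actin-binding anillin of the cleavage furrow, the genotypes did not overlap. Ect2, the exchange factor for RhoA that centralspindlin recruits, overlapped narrowly, at 0.882 and 1.224 FPKM in ECp53KO, against 2.48 and 1.221 FPKM in Ctrl.

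The transcription factors and chromosome proteins were lower without overlap in 4 of 4 genes (17.2% over all genes). All 3 tested had an unadjusted limma p below 0.05 (2.82%), and the median log2 fold change was -1.09. Top2a, the topoisomerase that decatenates sister chromatids, had 2.01 and 1.49 FPKM in ECp53KO, against 6.51 and 4.37 FPKM in Ctrl. Mki67, whose product coats mitotic chromosomes and is the usual marker of dividing cells, had 1.11 and 1.31 FPKM in ECp53KO, against 6.63 and 2.83 FPKM in Ctrl. Its log2 fold change was -1.29 ± 0.37 (limma adjusted p = 0.864). Foxm1, the forkhead factor that activates G2 and M genes, had 1.08 and 1.35 FPKM in ECp53KO, against 3.77 and 2.88 FPKM in Ctrl. Mybl2, which encodes B-MYB, stayed under the filter at 0.0930 and 0.214 FPKM in ECp53KO, against 0.824 and 0.566 FPKM in Ctrl.

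Exons of 13 members share bases with another gene in GENCODE M21, and without strand reads of opposite-strand neighbours cannot be told apart in the shared bases. The share of the member's exon bases was 22.8% for Ube2c with Tnnc2 (0 to 0.254 FPKM) and 11.1% for Prc1 with Rccd1 (1.89 to 4.25 FPKM). For Tacc3 with Tmem129 (9.49 to 12.2 FPKM) it was 8.14%, and for Cdc20 with Elovl1 (72.2 to 75.3 FPKM) 2.84%. Cdca8 shared 4.48% with 9930104L06Rik (5.73 to 7.28 FPKM), Nusap1 4.24% with Oip5 (0.120 to 1.13 FPKM) and Cdc25b 2.47% with Spef1 (6.83 to 13.7 FPKM). Cdc25c shared 12.7%, Plk1 7.09% and Nek2 6.60% with genes that have no value under their GENCODE name. Foxm1 and Top2a share bases with genes on the same strand, and Ccna2 is given above.

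Of the members 5 lie on chromosome 11, the chromosome of Trp53, and 3 of these (Birc5, Hmmr and Top2a) were lower without overlap. So were 34 of the 43 on other chromosomes, beside 17.2% of all rows with a value above 0. The closest is Aurkb, 0.53 Mb from Trp53. The median ratio was 0.471 over the 5 and 0.395 over the 43.

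Other genes of mitosis were set beside the members from a list of 77 that the table holds. Of these 66 had a negative difference, 41 were lower and 7 higher without overlap (17.2% and 16.3% of all rows with a value above 0), and the median log2 fold change was -0.40. Of 54 tested, 0 passed the limma test over all genes in either direction, and by unadjusted p 11 were lower and 0 higher (2.82% and 1.97% of all tested genes). Of its 5 most abundant genes 1 was lower without overlap, 3 were higher and 1 overlapped. H2afz, a histone variant gene, had 164 and 112 FPKM in ECp53KO, against 150 and 154 FPKM in Ctrl, and Hmgb2, a chromatin protein gene, 35.5 and 24.2 FPKM in ECp53KO, against 37.4 and 36.2 FPKM in Ctrl. Bub3, the checkpoint partner of BUB1, had 61.6 and 46.9 FPKM in ECp53KO, against 46.1 and 43.6 FPKM in Ctrl. The APC/C subunit gene Anapc5 and the condensin II gene Ncaph2 had 126 and 120 FPKM and 37.2 and 36.9 FPKM in ECp53KO, against 106 and 108 FPKM and 33.5 and 31.4 FPKM in Ctrl.

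Related lists were described by counts, to be read beside the same 17.2% of rows lower and 16.3% higher without overlap. The 12 mitotic kinesins were all lower without overlap, with a median of -0.73, and Kif11, the motor that separates spindle poles, named after its values were seen, had 0.635 and 0.689 FPKM in ECp53KO, against 3.38 and 2.14 FPKM in Ctrl. Of 42 genes of the G1/S transition and of DNA replication 13 were lower and 1 higher without overlap, with a median of -0.12. Of the 12 genes of the MuvB core, the RB family and E2F4, E2F5 and their DP partners 0 were lower and 2 higher without overlap, with a median of -0.06. Differences between the lists were not tested.

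**Figure D5:**
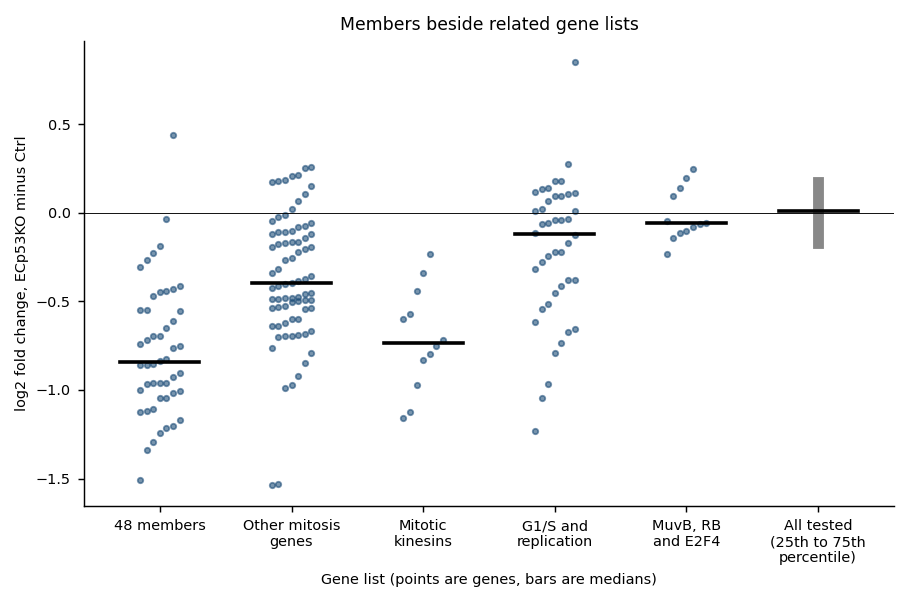
Log2 fold change, ECp53KO minus Ctrl, of the 48 members and of 4 related lists, 1 point per gene with the median as a bar, beside the median and the 25th to 75th percentiles of the 11332 tested genes (grey). The medians are -0.84 for the members, -0.40 for other mitosis genes, -0.73 for mitotic kinesins, -0.12 for G1/S and replication genes and -0.06 for MuvB, RB and E2F genes.

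The labelled cell type was checked on its markers. The endothelial cadherin gene Cdh5 had 982 and 958 FPKM in ECp53KO, against 1098 and 1022 FPKM in Ctrl. The 14 pan-endothelial genes summed to 7124 and 7015 FPKM in ECp53KO, against 6949 and 6868 FPKM in Ctrl. Without overlap 4 of the 14 were lower, Cdh5 among them, and 4 were higher. The 14 leukocyte genes summed to 11.2 and 13.1 FPKM in ECp53KO_170 and ECp53KO_172, against 17.4 and 9.85 FPKM in Ctrl_178 and Ctrl_182. Of these 4 and 6 were listed at 0 in the ECp53KO libraries and 2 in each Ctrl library. Without overlap 3 of the 14 were lower and 2 higher. The pan-leukocyte gene Ptprc stood at 0 to 0.108 FPKM and the myeloid gene Lyz2 at 2.52 to 3.19 FPKM. Csf1r, another gene of this list, had 0.266 and 0.178 FPKM in ECp53KO, against 0.0693 and 0.0675 FPKM in Ctrl. The leukocyte sum was thus highest in Ctrl_178, as for 47 members, but lowest in Ctrl_182. The 9 fibroblast genes summed to 31.0 to 33.53 FPKM in ECp53KO and 33.56 to 35.0 FPKM in Ctrl, which is lower without overlap by a small margin. Sums of the remaining lists were higher in each ECp53KO library. They were 145 to 177.8 FPKM in ECp53KO, against 95.02 to 114 FPKM in Ctrl, for 10 pericyte and smooth muscle genes. For 10 cardiomyocyte genes they were 212 to 381 FPKM in ECp53KO, against 195 to 208 FPKM in Ctrl, and for 6 erythroid genes 89.3 to 411 FPKM in ECp53KO, against 33.5 to 60.3 FPKM in Ctrl. Gene by gene, 5 of the 10 pericyte and smooth muscle genes and 5 of the 6 erythroid genes were higher without overlap. Of the 10 cardiomyocyte genes 2 were higher in this way and 8 overlapped. In these 3 lists 0 genes were lower without overlap, and of the 9 fibroblast genes 4 were lower and 2 higher. Of all rows with a value above 0, 17.2% were lower and 16.3% higher. The part of these lists in the members' difference was not tested.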

How the data were processed

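RNA was measured in 2 ECp53KO and 2 Ctrl libraries of sorted heart endothelial cells. Per the labels' protocols, libraries were non-stranded, selected for polyadenylated RNA and sequenced in paired reads. The submitters' processing notes name, among others, Trimmomatic 0.36, TopHat2 2.1.0, Cufflinks 2.2.1 and the build mm10 without roles. The authors deposited FPKM values per gene, not read counts, and no count model was used. Their gene annotation is not named in the sources used here.

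Values were analysed as log2(FPKM + 1), with a pseudocount of 1, in genes averaging 1 FPKM or more. The test was limma 3.58.1 (R 4.3.3) two-sided, with a trend of variance on level and Benjamini-Hochberg adjustment over 11332 genes, with 2 residual and 3.15 prior degrees of freedom, and was tested on simulated data. A fold change on this scale understates the change of low genes, and ratios of mean FPKM stand beside it. An exact 0 may be a failed estimate. Depth was estimated from the step between low values of 1037 single-transcript genes (GENCODE M21), taken as 1 fragment. Exons of 13 members share bases with another gene.

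Members, function groups, lists and tests were chosen with earlier results of these data known. Printed values follow a rule: the 3 members of highest mean FPKM per group and every member whose groups overlap or whose difference was positive. Other members were named after their values were seen. Alternatives changed the pseudocount, filter, scaling, variance model, small RNA loci and each library.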

Additional observations from a re-analysis of the deposited data

How the results depend on the processing

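No paired analysis was made because the labels name no pairs of ECp53KO and Ctrl libraries. Removal of the length trend, and leaving out small RNA loci together with a library, were chosen after seeing the data. With all 4 libraries, 0 members were called in either direction under every alternative, also at an adjusted p under 0.1. The median log2 fold change of the tested members, -0.91, was -1.31 with a pseudocount of 0.1, which by construction widens differences of low genes. Leaving out 1 library gave a median of -1.15 to -0.63, 11 to 30 members lower at an unadjusted p under 0.05, 0 or 1 higher, 29 to 41 lower and 0 or 1 higher without overlap, and 0 called. With small RNA loci left out as well, 14 to 34 were lower at that p, the median ran over the same -1.15 to -0.63, and 0 or 1 were higher. Without Ctrl_182 3 members were then called lower (Ckap2, Mki67 and Cdca3, limma adjusted p = 0.00463, 0.0175 and 0.0376), the lone library of that group being assumed to vary like the other. The 1 member higher without overlap was Pttg1, without ECp53KO_172 or without Ctrl_178. Lack of overlap is easier to reach with a library left out. Shares over all genes are not given for these settings, so their counts do not compare with those of all 4 libraries. Signs turned for 5 log2 fold changes, with or without small RNA loci. Mad2l1 was 0.065 with the length trend removed, 0.049 without ECp53KO_172 and 0.078 without Ctrl_178, and ran from -0.15 to 0.078 on leaving out a library. Without ECp53KO_170 Incenp was 0.010 (range -0.54 to 0.010), Hjurp 0.052 (-0.50 to 0.052), Ndc80 0.13 (-0.51 to 0.13) and Pttg1 -0.016 (-0.016 to 0.89). The causes were not tested. Of 677 single-gene values under alternatives, 661 kept their sign and their side of the threshold.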

Other observations

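Condensin, which compacts mitotic chromosomes, was measured in its 2 forms. These genes were picked after their values were seen and carry no test. Their counts without overlap stand beside 17.2% lower and 16.3% higher among all rows with a value above 0. The 3 genes particular to condensin I (Ncapd2, Ncapg and Ncaph) summed to 7.47 and 8.95 FPKM in ECp53KO_170 and ECp53KO_172, against 16.0 and 12.6 FPKM in Ctrl_178 and Ctrl_182, and all 3 were lower without overlap. The 3 genes of condensin II (Ncapd3, Ncapg2 and Ncaph2) summed to 43.9 and 43.2 FPKM in ECp53KO and to 42.2 and 40.2 FPKM in Ctrl, with 2 lower and 1 higher without overlap. Ncaph2, at 37.2 and 36.9 FPKM in ECp53KO, against 33.5 and 31.4 FPKM in Ctrl, makes up most of that sum, and without it the sum was 6.71 and 6.33 FPKM in ECp53KO, against 8.76 and 8.75 FPKM in Ctrl. The median log2 fold change was -0.20 over the 3. Of the shared subunits, Smc4 had 8.44 and 10.0 FPKM in ECp53KO, against 12.8 and 14.2 FPKM in Ctrl, without overlap, and Smc2 had 3.04 and 4.54 FPKM in ECp53KO, against 4.68 and 3.38 FPKM in Ctrl, and overlapped.

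Genes of APC/C subunits, also picked after their values were seen and not tested, are given next. The 6 genes (Anapc1, Anapc4, Anapc5, Cdc16, Cdc23 and Cdc27) summed to 217 and 206 FPKM in ECp53KO and to 193 and 194 FPKM in Ctrl. Of these 0 were lower and 3 higher without overlap, beside 17.2% and 16.3% of all rows with a value above 0. The difference was negative in 3, and the median log2 fold change was 0.021. Most of the gap between the sums is Anapc5. Over the other 5 genes the sums were 90.3 and 86.0 FPKM in ECp53KO, against 86.9 and 86.6 FPKM in Ctrl, which overlap.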
